A study of Mus musculus with 40 samples.

Results

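The type I interferon-stimulated antiviral genes are represented by 40 genes of the mouse, found by symbol among the 54087 genes of a count table of tumor RNA. All 40 were found, and all 40 passed the filter on low counts that 14760 genes passed. They were chosen by name with the results for one of them known: Isg15, selected on its measured value, was the single gene called between anti-TGF-β + anti-PD-1 and anti-PD-1, so that comparison is given here as a description, and nothing is read from its p-values or counts of calls. BALB/c mice, 6 to 12 weeks old in the study's methods, received 1000000 CT26 colon carcinoma cells under the skin, were treated with mAbs (monoclonal antibodies) by intraperitoneal injection on days 6, 9 and 12, and gave a tumor fragment for RNA on day 13. There were 40 mice in 8 groups of 5: an isotype control (motavizumab, mIgG2a), anti-PD-1 FcS alone, anti-TGF-β alone, anti-GARP:TGF-β1 alone in a WT or an FcD form, and the 3 combinations of anti-PD-1 with these mAbs, called here the anti-TGF-β combination, the WT GARP combination and the FcD GARP combination. Anti-GARP:TGF-β1 is clone 58A2, which blocks TGF-β1 bound to GARP, a protein at the surface of regulatory T cells, and the FcD form has a dead Fc part that does not bind Fcγ receptors while the WT form does. Anti-TGF-β is clone 1D11, which neutralizes TGF-β whatever its source. Anti-PD-1 FcS carries a silent Fc part and is written anti-PD-1 from here on. All tumors came from a single cell line, and the RNA is that of a whole tumor fragment, so a change in the number of cells of a type and a change in RNA per cell cannot be told apart.

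Type I interferons bind a receptor made of Ifnar1 and Ifnar2, whose kinases are Tyk2 and Jak1. Stat2 and Irf9 are parts of the complex ISGF3 that these kinases switch on, which binds the interferon-stimulated response element (ISRE) in front of its target genes. The products sense foreign or misplaced RNA and DNA, block translation, degrade RNA, trap virions or attach the ubiquitin-like protein ISG15 to other proteins, and Usp18 feeds back to switch the receptor off. Many of the same genes also respond to interferon-γ, which T cells and NK cells release in tumors.

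The sequence in front of the start site of a few members is printed because the ISRE is what the family is known for. RefSeq promoter sequences of GRCm38.p6 were matched for 30 of the 40 members, and the 250 bases before each start were searched on both strands for the ISRE core GAAANNGAAA (TTTCNNTTTC on the other strand). A core was present in 13 of those 30 genes (43.3%), against 3.46% of the 27025 genes with a promoter. The 13 were Isg15, Ifit1, Ifit3, Ifit3b, Rsad2, Stat2, Oas1a, Oas1g, Oas3, Trim30a, Bst2, Ddx60 and Slfn5. Only members with a core are printed, while Ifi35, Oasl1 and Herc6, whose values are also given below, had none. The gamma-activated site core TTCNNNGAA, an element of the interferon-γ response, was present in 13.3% of the members and 8.13% of all genes. In the windows below, written 5′ to 3′ on the strand of the gene, capitals mark each match to the ISRE core, and overlapping matches run together. Isg15 lies on chr4:156200819-156201068 (minus strand) and has 3 overlapping matches, the nearest beginning 66 bases before the start. Ifit3 is at chr19:34583279-34583528 and its near-copy Ifit3b at chr19:34607707-34607956 (both plus strand), each with 2 matches. Rsad2 is at chr12:26456453-26456702 (minus strand) and Slfn5 at chr11:82951852-82952101 (plus strand), each with 1 match.
Isg15: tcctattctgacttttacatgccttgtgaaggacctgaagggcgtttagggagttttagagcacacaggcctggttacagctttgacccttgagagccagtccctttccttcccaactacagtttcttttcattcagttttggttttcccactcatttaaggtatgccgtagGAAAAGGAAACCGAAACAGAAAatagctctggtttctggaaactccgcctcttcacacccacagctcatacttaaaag
Ifit3: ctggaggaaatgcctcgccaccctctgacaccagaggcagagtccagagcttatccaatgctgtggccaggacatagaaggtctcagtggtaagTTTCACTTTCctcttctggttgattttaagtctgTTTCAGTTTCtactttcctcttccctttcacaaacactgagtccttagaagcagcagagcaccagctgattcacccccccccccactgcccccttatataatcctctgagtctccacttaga
Ifit3b: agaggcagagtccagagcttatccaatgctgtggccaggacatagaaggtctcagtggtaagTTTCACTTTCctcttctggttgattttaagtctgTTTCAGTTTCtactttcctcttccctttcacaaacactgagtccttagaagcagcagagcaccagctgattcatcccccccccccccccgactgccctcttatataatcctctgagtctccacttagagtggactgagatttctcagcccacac
Rsad2: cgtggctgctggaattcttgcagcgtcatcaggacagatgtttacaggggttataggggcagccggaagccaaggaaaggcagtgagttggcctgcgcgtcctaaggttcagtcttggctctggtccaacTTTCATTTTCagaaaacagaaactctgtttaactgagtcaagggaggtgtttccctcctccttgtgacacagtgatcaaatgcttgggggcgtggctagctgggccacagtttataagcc
Slfn5: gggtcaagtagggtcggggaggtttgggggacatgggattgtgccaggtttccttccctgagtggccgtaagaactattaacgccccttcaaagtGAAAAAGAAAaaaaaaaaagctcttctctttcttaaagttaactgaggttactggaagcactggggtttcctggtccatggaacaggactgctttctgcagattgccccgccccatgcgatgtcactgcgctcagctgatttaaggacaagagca

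The total count per mouse ran from 11931730 to 20680548, with a median of 14030511. The least counted member, Ifit3b, had 96 to 403 counts per mouse, and the most counted, Bst2, had 3674 to 12007. Levels are given as CPM, counts per 1000000 after TMM scaling, and differences as log2 fold changes from edgeR's quasi-likelihood fit to the 40 mice together. A gene is called where its p, adjusted after Benjamini-Hochberg over the 14760 genes tested, is under 0.05. Libraries fell into 2 blocks by number: the 20 numbered 41 to 60 held 91 to 428 counts of the Y-linked gene Ddx3y, while the 20 numbered 61 to 80 held 0 counts of it and 784 to 12701 of Xist. Each group had 2 or 3 mice in each block, and the median member difference within blocks is given beside the comparisons.

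In the isotype control tumors the members were unevenly expressed. Per kb of exon, Bst2 (tetherin, which tethers budding virions to the cell surface) stood highest, at 487 CPM per kb ± 64.6 (SD, n = 5), above Lgals3bp at 91.7 ± 8.26, Isg15 at 86.2 ± 15.1, Zbp1 at 66.8 ± 11.8 and Irf7 at 61.1 ± 7.18. Lgals3bp and Isg15 did not differ beyond their spread, nor did Zbp1 and Irf7. The lowest were Slfn5 at 3.11 CPM per kb ± 0.601 and Mx2 at 3.59 ± 0.521.

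The mean log2 CPM over the 40 genes gives the level of the family in each mouse. It was 5.99 ± 0.13 (SD, n = 5) in isotype control tumors, 5.90 ± 0.47 with anti-PD-1, 5.96 ± 0.12 with anti-GARP:TGF-β1 WT, 5.83 ± 0.16 with the FcD form and 6.23 ± 0.34 with anti-TGF-β. In the combinations it was 6.37 ± 0.20 (WT GARP), 6.28 ± 0.14 (FcD GARP) and 6.40 ± 0.23 (anti-TGF-β). The 3 combinations thus had the highest means, and the single mAbs had means on both sides of the isotype control. In the anti-PD-1 group mouse 47 stood at 5.09, the lowest of all 40 mice.

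**Figure D1:**
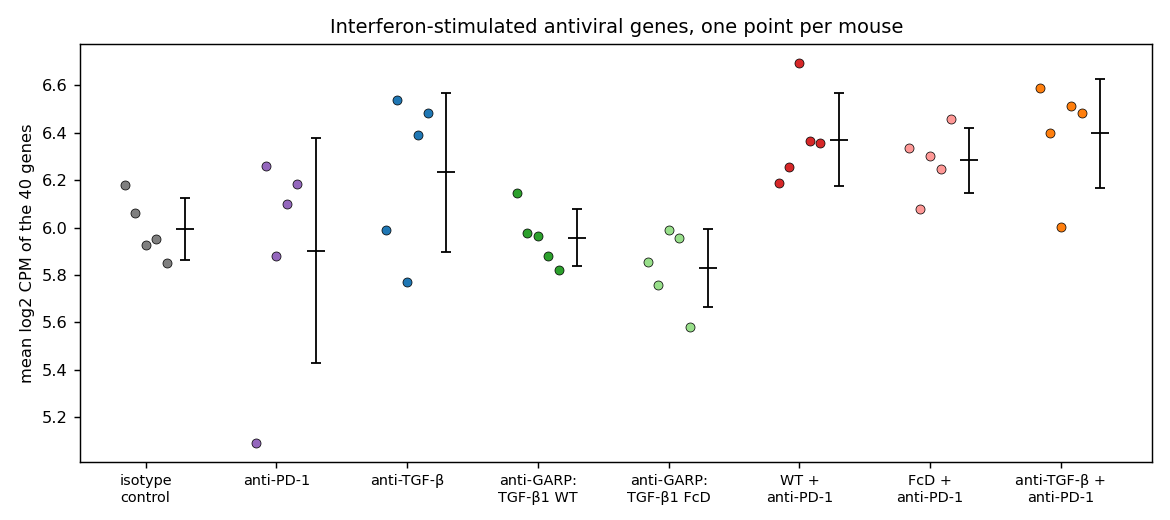
Mean log2 CPM of the 40 interferon-stimulated genes in each mouse (y axis), one point per mouse, by treatment group (x axis), with bars for the mean and SD of 5 mice. The 3 combinations with anti-PD-1 have the highest means, 6.28 to 6.40, and mouse 47 of the anti-PD-1 group lies lowest at 5.09.

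Against isotype control, 40 of the 40 genes had a positive log2 fold change with the anti-TGF-β combination, 38 with the WT GARP combination and 39 with the FcD GARP combination. The median member difference was 0.44, 0.35 and 0.27 on the log2 scale, where the median over all 14760 genes was 0.02, 0.01 and -0.004. Under edgeR, 0 members and 0 genes were called in each of these comparisons. At an unadjusted p under 0.05, 22 members were higher and 0 lower with the anti-TGF-β combination, where 8.49% of all genes were higher. With the WT GARP combination 18 members were higher and 0 lower (13.2% of all genes higher), and with the FcD GARP combination 5 were higher and 0 lower (10.7% of all genes higher). In a fit of the 2 groups alone the FcD GARP combination had 22 higher members, where 14.9% of all genes were higher. DESeq2's Wald test called 139, 0 and 10 genes, among them 6 members (Bst2, Ifi35, Ifit3, Ifit3b, Isg15 and Oasl1) in the first comparison and 0 members in the others. The 3 comparisons share the same 5 control mice. Leaving out mouse 53 of the anti-TGF-β combination group moved the calls against isotype from 0 to 2006 genes, 13 members among them, and leaving out control mouse 63 moved them to 730 genes with 9 members. Without mouse 64 of the WT GARP combination 8 members, not 18, were higher at an unadjusted p under 0.05 (12.7% of all genes), and without its mouse 77 there were 14, where 2.81% of all genes were higher. For the FcD GARP combination the count ran from 1 (without control mouse 78; 7.8% of all genes) to 11 (without mouse 50; 14.9%).

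Within the 20 libraries numbered 41 to 60 the median member difference against isotype was 0.34 with the anti-TGF-β combination, 0.10 with the WT GARP combination and 0.10 with the FcD GARP combination. Within the 20 numbered 61 to 80 it was 0.44, 0.52 and 0.45. Both blocks were positive for all 3 combinations. The GARP combinations had the larger value in the second block, and the difference between blocks was not tested.

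Isg15, the ubiquitin-like modifier itself (ENSMUSG00000035692, chr4:156199424-156200818, minus strand, 756 bases of exon), is the member by which the family was noticed. Its values in the isotype control mice were 79.7, 58.4, 73.3, 63.0 and 51.3 CPM, and in the anti-TGF-β combination mice 103, 113, 115, 118 and 139 CPM. All 5 mice of the combination lay above all 5 controls. With the WT GARP combination it stood at 77.9, 91.5, 108, 78.7 and 56.9 CPM, and with the FcD GARP combination at 77.8, 83.5, 68.8, 66.8 and 80.8 CPM. Both of these ranges overlapped that of the controls.

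Among the single mAbs, Isg15 stood at 37.7, 74.4, 60.1, 67.8 and 66.4 CPM with anti-PD-1. It stood at 67.1, 57.2, 80.6, 61.4 and 74.9 CPM with anti-GARP:TGF-β1 WT and at 58.9, 56.6, 60.5, 58.6 and 48.3 CPM with the FcD form. These groups overlapped the controls throughout. With anti-TGF-β alone it stood at 55.8, 88.6, 67.5, 110.0 and 94.7 CPM, 3 of the 5 above all controls. Ordered by mean, Isg15 ran from 56.6 CPM ± 4.8 with anti-GARP:TGF-β1 FcD through anti-PD-1 (61.3 ± 14.1), isotype control (65.2 ± 11.4), anti-GARP:TGF-β1 WT (68.2 ± 9.6), FcD GARP combination (75.6 ± 7.4), WT GARP combination (82.7 ± 19.0) and anti-TGF-β (83.3 ± 21.7) to the anti-TGF-β combination (117 ± 13.2). Neighbours in this order overlapped in their values, also the last pair, since anti-TGF-β alone had 1 mouse at 110.0 CPM.

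The log2 fold change of Isg15 against isotype was 0.85 ± 0.16 (SE) with the anti-TGF-β combination, a fold of 1.80 (adjusted p = 0.0891). Over the alternatives its adjusted p ran from 0.00401 to 0.297, and it passed the threshold with DESeq2's Wald test (0.00401), in a fit of the 2 groups alone (0.0410) and without mouse 53 (0.00951) or control mouse 63 (0.0318). It was 0.34 ± 0.16 with the WT GARP combination (adjusted p = 0.228), 0.21 ± 0.16 with the FcD GARP combination (adjusted p = 0.488) and 0.35 ± 0.16 with anti-TGF-β alone (adjusted p = 0.999928). For anti-PD-1 (-0.09) and anti-GARP:TGF-β1 WT (0.07) alone the values were smaller than that error, and for FcD alone it was -0.20. Against anti-PD-1, the contrast that chose it, Isg15 differed by 0.94 on the log2 scale, a fold of 1.91. Its differences in the other comparisons with the anti-TGF-β combination rest on the same 5 mice and are not independent of that choice. Within library blocks the difference from isotype was 0.66 in 41 to 60 and 0.99 in 61 to 80.

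**Figure D2:**
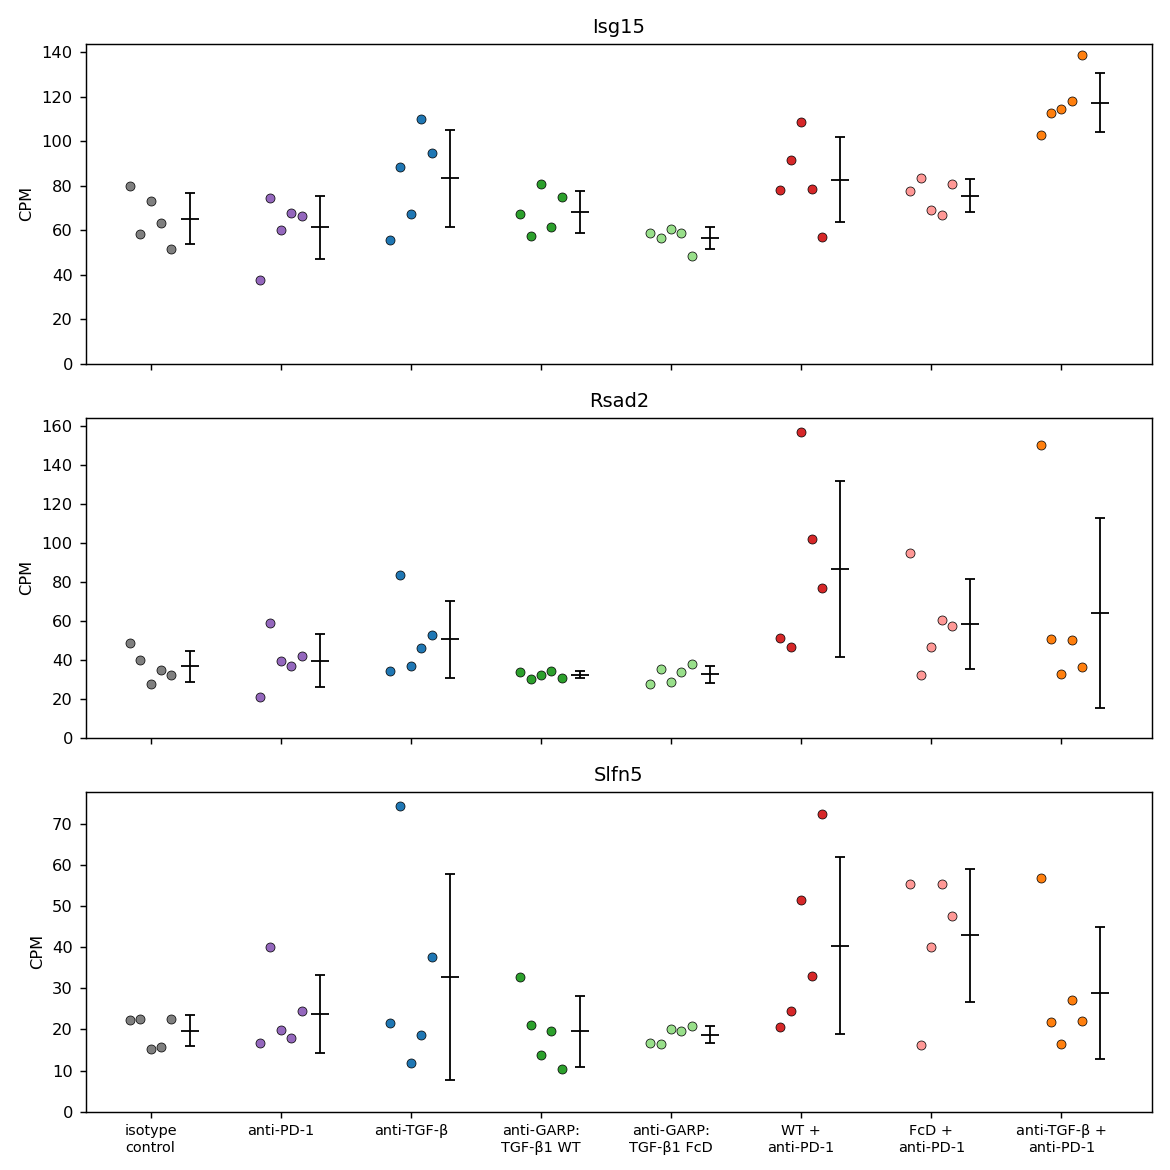
CPM of Isg15, Rsad2 and Slfn5 (one panel each, y axis) in every mouse of the 8 groups (x axis), with bars for the mean and SD of 5 mice. Isg15 is highest with the anti-TGF-β combination, at 103 to 139 CPM, while Rsad2 and Slfn5 are high in 1 mouse of that group (mouse 53) and in several mice of the GARP combinations.

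The sensors of RNA and DNA are induced by interferon and can in turn set off more of it: Ifih1 (MDA5), Ddx58 (RIG-I) and its regulator Dhx58 (LGP2), Ddx60, Zbp1, which binds Z-form nucleic acid, and Eif2ak2 (PKR), which stops translation. Against isotype 2 of the 6 were higher at an unadjusted p under 0.05 with the anti-TGF-β combination (Dhx58 and Zbp1). With the WT GARP combination 2 were (Dhx58 and Ddx60), and with the FcD GARP combination 1 was (Dhx58). Of all genes 8.49%, 13.2% and 10.7% were higher, the shares that apply to the counts by role here and below. Dhx58 stood at 53.4, 44.8, 48.2, 44.6 and 38.6 CPM in the controls, at 59.1, 55.1, 76.4, 55.2 and 72.7 with the WT GARP combination and at 60.5, 56.7, 59.2, 55.4 and 70.2 with the FcD GARP combination. All 10 mice of the GARP combinations lay above all 5 controls. The log2 fold change was 0.47 ± 0.16 (adjusted p = 0.159) and 0.39 ± 0.16 (adjusted p = 0.254). Ddx60 had the smallest difference of the family with the anti-TGF-β combination, at 0.06 ± 0.24, and stood at 0.56 ± 0.24 with the WT GARP combination.

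Of the transcription factors and feedback genes, Stat2 and Irf9 are parts of ISGF3, Irf7 drives further interferon production and Usp18 removes ISG15 from proteins and dampens the receptor. With the anti-TGF-β combination 2 of the 4, Irf7 (0.58 ± 0.17) and Usp18 (0.43 ± 0.16), were higher at an unadjusted p under 0.05. With the WT GARP combination Irf7 was (0.35 ± 0.17), and with the FcD GARP combination 0 were. The medians of the 4 were 0.36, 0.29 and 0.19 on the log2 scale.

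The enzymes that attach ISG15, ubiquitin or ADP-ribose include Herc6, the main ISG15 ligase of the mouse, Parp9 with its partner Dtx3l, Parp14 and Trim30a. Together with Isg15, 2 of these 6 genes were higher at an unadjusted p under 0.05 with the anti-TGF-β combination (Isg15 and Herc6), 5 with the WT GARP combination (all but Herc6) and 2 with the FcD GARP combination (Parp14 and Parp9). Parp14 stood at 156, 150.4, 95.7, 107 and 104 CPM in the controls and at 216, 129, 208, 190.5 and 228 CPM with the FcD GARP combination. Mouse 50, the second of these, fell within the range of the controls and the other 4 lay above it, and the log2 fold change was 0.67 ± 0.28 (adjusted p = 0.260). Parp9 and Dtx3l overlap on opposite strands of chromosome 16, and the strand setting of the counting is not given in the sources used here, so reads in the overlap may have been counted for either.

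The IFIT proteins bind viral RNA and block its translation. All 4 had positive differences in all 3 combinations, and 3, 4 and 0 of them were higher at an unadjusted p under 0.05 with the anti-TGF-β combination, the WT GARP combination and the FcD GARP combination. Ifit3b stood at 13.0, 11.6, 12.5, 11.2 and 10.9 CPM in the controls and at 21.6, 20.1, 13.9, 21.8 and 22.0 CPM with the anti-TGF-β combination. The groups did not overlap, and mouse 62, the third, lay closest to the controls. The difference was 0.75 ± 0.18 on the log2 scale (adjusted p = 0.106). Ifit3 stood at 54.0, 43.4, 48.5, 43.2 and 35.8 CPM in the controls and at 82.3, 70.9, 53.1, 78.5 and 76.6 CPM with that combination, where mouse 62 again was the lowest and the only one inside the range of the controls. Its difference was 0.68 ± 0.18 (adjusted p = 0.108). Ifit3 shares 31.7% of its 100-base stretches with Ifit3b, a read length, so counts of the pair could have been split between them.

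The OAS enzymes make the 2-5A signal that activates RNase L, and Oasl1 is a relative without that activity that represses translation of Irf7. Against isotype 6 of 7 were higher at an unadjusted p under 0.05 with the anti-TGF-β combination (all but Oas3), 1 of 7 (Oasl1) with the WT and 1 of 7 (Oasl1) with the FcD GARP combination. The counts in both GARP combinations are near the shares of all genes higher, 13.2% and 10.7%. The median differences of the 7 were 0.45, 0.18 and 0.16. Oasl1 stood at 63.0, 45.3, 57.7, 53.6 and 42.7 CPM in the controls, at 57.5, 57.0, 86.5, 74.3 and 65.7 with the WT combination and at 72.2, 58.0, 61.7, 64.4 and 63.3 with the FcD combination. In each of these combinations 3 mice lay above all controls, with log2 fold changes of 0.38 ± 0.13 (adjusted p = 0.159) and 0.28 ± 0.13 (adjusted p = 0.276). Oas1g had the lowest difference of the family in both GARP combinations (-0.12 ± 0.18 and -0.10 ± 0.18).

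The Mx proteins are GTPases that trap viral ribonucleoproteins, and Mx1 is defective in most laboratory mouse strains. Both were higher at an unadjusted p under 0.05 with the anti-TGF-β combination, Mx1 alone with the WT GARP combination and 0 of the 2 with the FcD GARP combination. Mx1 stood at 23.1, 25.0, 21.2, 21.9 and 26.5 CPM in the controls and at 23.4, 34.3, 61.3, 34.5 and 42.4 CPM with the WT GARP combination. In that combination 4 of the 5 mice exceeded all controls, and the difference was 0.74 ± 0.25 (adjusted p = 0.159).

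Among the 11 other effectors, 5, 4 and 1 were higher at an unadjusted p under 0.05 with the anti-TGF-β combination, the WT and the FcD GARP combination. Ifi35, an interferon-induced leucine zipper protein, stood at 67.4, 61.9, 79.2, 65.1 and 56.8 CPM in the controls and at 70.7, 105, 104, 103 and 120.1 CPM with the anti-TGF-β combination. Only mouse 53, the first, overlapped the controls, and the difference was 0.60 ± 0.15 (adjusted p = 0.106). In the GARP combinations the same gene stood at -0.02 ± 0.15 (WT) and 0.05 ± 0.15 (FcD).

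Rsad2 (viperin), which makes a chain-terminating nucleotide, had the largest difference of the family with the WT GARP combination. It stood at 48.4, 39.7, 27.7, 35.0 and 32.1 CPM in the controls and at 51.3, 46.4, 157, 102 and 77.0 CPM with that combination. Mice 64, 69 and 77 were high, mouse 55 lay within the range of the controls, and the difference was 1.24 ± 0.34 on the log2 scale (adjusted p = 0.159). Within library blocks it was 0.15 in 41 to 60 and 1.77 in 61 to 80, so the value rests on the second block. With the anti-TGF-β combination Rsad2 stood at 149.98 CPM in mouse 53 and at 32.9 to 50.8 in the other 4.

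Slfn5, a Schlafen protein of the interferon response, had the largest difference with the FcD GARP combination. It stood at 22.2, 22.6, 15.3, 15.6 and 22.4 CPM in the controls and at 55.3, 16.1, 39.9, 55.2 and 47.7 CPM with that combination. Mouse 50 lay among the controls and the other 4 above all of them, and the difference was 1.12 ± 0.40 (adjusted p = 0.236). Within library blocks it was 0.55 in 41 to 60 and 1.54 in 61 to 80.

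Without overlap, all 5 mice above all 5 controls, stood 8 members with the anti-TGF-β combination (Isg15, Ifit3b, Irf7, Oasl1, Rtp4, Xaf1, Zbp1 and Epsti1), where 1.73% of all genes did. With the WT GARP combination there were 2 (Dhx58 and Ddx60; 1.35% of all genes) and with the FcD GARP combination 2 (Ifit3b and Dhx58; 1.96% of all genes).

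**Figure D3:**
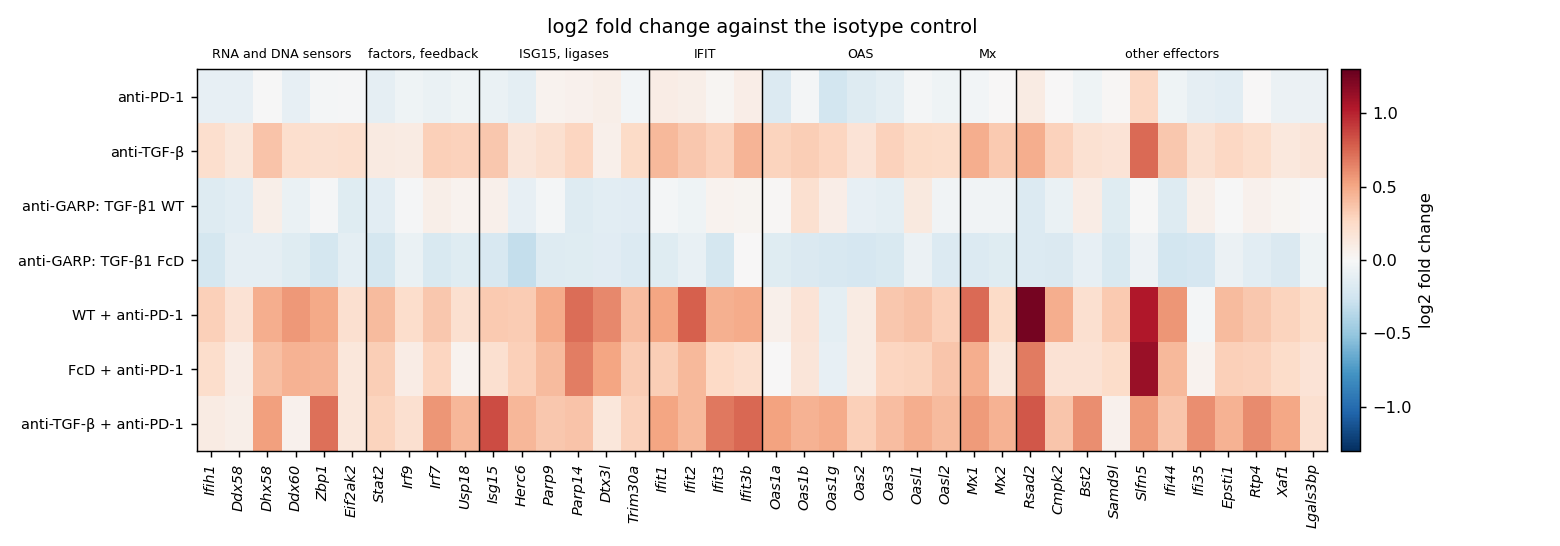
Log2 fold change against isotype control of each of the 40 genes (columns, grouped by role) in the 7 treated groups (rows), as colors from -1.3 to 1.3. The rows of the 3 combinations are positive for 38 to 40 of the genes, while the row of anti-GARP:TGF-β1 FcD alone is negative for 39.

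With each mAb given alone, edgeR called 0 genes against isotype. At an unadjusted p under 0.05, 0 of the 40 members were higher and 0 lower with anti-PD-1 (0.603% of all genes higher), with anti-GARP:TGF-β1 WT (0.583%) and with the FcD form (0.264%). With anti-TGF-β 5 were higher and 0 lower (1.77% of all genes higher), a count that ran from 0 without mouse 79 (2.18% of all genes) to 14 without mouse 59 (3.16%) of that group. DESeq2's Wald test called 1 gene, not a member, with anti-PD-1 and 0 with the other 3. The median member difference was -0.04 with anti-PD-1, where 13 of the 40 were positive, -0.03 with anti-GARP:TGF-β1 WT (15 positive), -0.17 with FcD (1 positive) and 0.26 with anti-TGF-β (40 positive). The anti-TGF-β value was -0.05 within libraries 41 to 60 and 0.55 within 61 to 80, so it changed sign between the blocks. The anti-PD-1 value was -0.37 and 0.25, that of anti-GARP:TGF-β1 WT -0.10 and -0.02, and that of FcD -0.33 and -0.06.

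With anti-TGF-β alone the member of smallest p was Ifit3b, at 12.7, 20.3, 12.5, 16.6 and 18.4 CPM, 3 of 5 mice above all controls, with a difference of 0.44 ± 0.18 (adjusted p = 0.999928). With anti-PD-1 it was Oas1g, at 23.6, 24.7, 41.0, 31.6 and 41.7 CPM against 39.6, 34.8, 42.3, 39.0 and 36.2 CPM in the controls, a difference of -0.24 ± 0.18 (adjusted p = 0.999869). These groups overlapped.

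With anti-GARP:TGF-β1 WT the member of smallest p was Oas1b, a gene that carries a premature stop in most laboratory strains. It stood at 20.3, 18.1, 22.8, 16.7 and 22.9 CPM against 20.3, 15.5, 18.9, 16.5 and 15.8 CPM in the controls, a difference of 0.21 ± 0.16 (adjusted p = 1). With the FcD form it was Herc6, at 34.6, 37.1, 39.4, 43.8 and 24.5 CPM against 51.9, 53.3, 36.1, 42.0 and 38.3 CPM, a difference of -0.30 ± 0.19 (adjusted p = 0.999961). Both overlapped the controls.

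What a second mAb adds to anti-PD-1 was addressed by comparing each combination with anti-PD-1 alone. These comparisons share the 5 anti-PD-1 mice, which were also the reference in the contrast that chose the family. The member values in them are therefore a description. With anti-GARP:TGF-β1 WT added, 24 members were higher and 0 lower at an unadjusted p under 0.05 (11.2% of all genes higher), and all 40 differences were positive with a median of 0.43. With the FcD form added, 10 were higher and 0 lower (6.46% of all genes higher), and all 40 were positive with a median of 0.31. Under edgeR and under DESeq2, 0 genes were called in either comparison. These counts moved with single mice. Without the low mouse 47 of the anti-PD-1 group 6 members were higher with the WT form (6.66% of all genes) and 0 with the FcD form (5.09%), and the medians were 0.26 and 0.16. Within libraries 41 to 60 the medians were 0.44 (WT) and 0.46 (FcD), and within 61 to 80 they were 0.26 and 0.14. With the WT form 12 were higher without anti-PD-1 mouse 54 (6.74% of all genes), 8 without mouse 64 of the combination (10.3%) and 24 without its mouse 77 (2.15%). With the FcD form 1 was higher without mouse 80 of the combination (5.72%), 3 without its mouse 44 (3.34%) or anti-PD-1 mouse 54 (3.32%), 6 and 7 without its mice 60 (5.68%) and 71 (2.77%), and 17 without its mouse 50 (11.5%). Without mouse 52 of the anti-PD-1 group 30 (15.2% of all genes) and 21 (11.9%) were higher, and edgeR called 538 genes with the WT form, among them Dhx58, Mx1, Oasl1 and Rsad2.

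Rsad2 had the smallest p with the WT form. It stood at 20.7, 58.6, 39.6, 36.8 and 41.8 CPM with anti-PD-1 alone, and the values with the WT form added, given above, exceeded all of these in 3 of 5 mice, a difference of 1.13 ± 0.34 (adjusted p = 0.231). With the FcD form it was Dhx58, at 26.2, 66.6, 43.8, 42.8 and 49.6 CPM with anti-PD-1 alone, a difference of 0.40 ± 0.16 (adjusted p = 0.458). Isg15 differed by 0.43 ± 0.16 with the WT form and by 0.30 ± 0.16 with the FcD form, a description, since it was chosen on a contrast with the same 5 anti-PD-1 mice. Without overlap stood 2 members with the WT form (Irf7 and Ddx60; 0.251% of all genes) and 1 with the FcD form (Irf7; 0.474%).

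For anti-TGF-β added to anti-PD-1, the contrast by which the family was chosen, 1 gene of the table (0.00678%) was called, Isg15, and the values of the other members are a description. All 40 differences were positive with a median of 0.48, and the median was 0.71 within libraries 41 to 60 and 0.15 within 61 to 80. The lowest difference was that of Samd9l, 0.05.

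Conversely, anti-PD-1 added to each of the other mAbs gave 22 higher members and 0 lower for anti-GARP:TGF-β1 WT (16.6% of all genes higher), 27 and 0 for the FcD form (13% of all genes higher) and 6 and 0 for anti-TGF-β (3.96% of all genes higher), with 0 genes called by edgeR in each. The medians were 0.42, 0.45 and 0.14. Within libraries 41 to 60 they were 0.20, 0.42 and 0.39 and within 61 to 80 they were 0.62, 0.49 and -0.11, so that for anti-TGF-β changed sign between the blocks. With the length and GC term described below 2 members, not 6, were higher for anti-TGF-β. Rsad2 had the smallest adjusted p for WT (1.43 ± 0.34, adjusted p = 0.0963), and Herc6 for FcD (0.61, adjusted p = 0.131). Isg15 differed by 0.28 (WT), 0.42 (FcD) and 0.49 (anti-TGF-β, adjusted p = 0.5003), and with the length and GC term by 0.46, 0.38 and 0.24, so the order of the values turned.

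Whether the effect of a mAb on the family differed with and without anti-PD-1 was tested as an interaction in the same model. The difference of effects was positive at an unadjusted p under 0.05 for 10 members for anti-GARP:TGF-β1 WT (4.3% of all genes) and 12 for the FcD form (2.45%), with 0 genes called by edgeR in either. The median member value was 0.43 and 0.50 on the log2 scale. The Spearman correlation of the member values with exon length was 0.674 and 0.539, where all genes gave 0.343 and 0.192. The member of smallest p was Rsad2 for WT, at 1.31 (adjusted p = 0.483) and Herc6 for FcD, at 0.74 (adjusted p = 0.787). For FcD the largest value was that of Slfn5, 0.92. The interaction for anti-TGF-β holds the whole contrast on which Isg15 was selected. Its median was 0.18, and Isg15 stood at 0.58 ± 0.23.

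Between the combinations, single members were called while the median member difference was small. The anti-TGF-β combination against the WT GARP combination gave a median member difference of 0.04, with 21 of the 40 positive, and against the FcD GARP combination 0.14, with 28 positive. Against WT it was 0.23 (37 positive) within libraries 41 to 60 and -0.09 (17 positive) within 61 to 80, with Rsad2 at 0.84 and -1.45, so the sign differed between the blocks. Against FcD it was 0.24 and 0.01. The same 4 members were called as higher with the anti-TGF-β combination in both: Ifi35 (0.63, adjusted p = 0.0225 against WT; 0.56, adjusted p = 0.0447 against FcD), Isg15 (0.50, 0.0341; 0.64, 0.0447), Oas1g (0.61, 0.0287; 0.59, 0.0486) and Oas1a (0.46, 0.0411; 0.53, 0.0453). The background was 18.2% of all genes called against WT and 6.46% against FcD, so 4 of 40 is below it in the first and near it in the second. At an unadjusted p under 0.05 there were 5 higher members and 1 lower (Ddx60, -0.50) against WT (16.5% of all genes higher) and 9 and 0 against FcD (15.4% of all genes higher). The 2 comparisons share the 5 mice of the anti-TGF-β combination. Isg15 was selected on those mice, so its calls here and below are a description. Oas1a stood at 76.2, 106, 91.7, 126 and 127 CPM with the anti-TGF-β combination, at 66.9, 71.3, 88.5, 70.6 and 85.2 with the WT and at 68.0, 78.8, 67.2, 69.4 and 82.6 with the FcD GARP combination. Mouse 53, the first, overlapped the GARP combinations and the other 4 exceeded them. Oas1a and Oas1g share 40.9% and 31.2% of their 100-base stretches with each other, so their counts are uncertain as separate values.

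The 4 members were called as well by DESeq2's Wald test in both comparisons. With the library block in the model the same 4 were called against WT, and Ifi35, Isg15 and Oas1a against FcD. With no filter on low counts Ifi35 alone was called against WT (Isg15 had an adjusted p of 0.0679) and 0 members against FcD. In a fit of the 2 groups alone and without mice 47, 52 and 62, 0 genes were called in either comparison. Against the WT GARP combination 0 genes were called without mouse 62, 68 or 69, Ifi35 was the single member called without mouse 57 or 66, Ifi35 and Oas1g were called without mouse 45 and Ifi35 and Oas1a without mouse 77. Without mouse 55 Ifi35, Isg15 and Oas1g were called. Against WT 5309 genes were called without mouse 53, with 8 members among them, of which 5 were higher. Against the FcD GARP combination 0 genes were called without any one of 8 mice. There 4612 were called without mouse 53 (8 members, 7 higher) and 4256 without mouse 50 (7 members, 7 higher). Between the GARP combinations, FcD against WT, 0 genes were called by edgeR, 0 members were higher or lower at an unadjusted p under 0.05 (0.813% of all genes higher), and the median member difference was -0.08 (-0.03 and -0.11 within the blocks). Isg15 differed there by -0.13 ± 0.16 and Rsad2, the member of smallest p, by -0.57.

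The differences of the anti-TGF-β combination went with the length of the transcript, in the members as in all genes. Over the 40 members the Spearman correlation of log2 fold change against isotype with exon length was -0.682, and over the 12761 genes with a length -0.434. These points share the libraries, and the values are a description. The 20 shorter members (below the median of 4019 bases) had a median difference of 0.53 and the 20 longer ones 0.33. Over all genes the median was 0.28 for the 970 under 1500 bases and -0.10 for the 5466 over 5000 bases. Isg15 with its 756 bases is the shortest member, and Ifi35 (1727 bases), Oas1a (1885) and Oas1g (2340) are short too, while Ddx60 has 8684 bases. The slope of level on length was negative in 4 of the 5 mice of the group and positive in mouse 53. In the GARP combinations the sign was the opposite, 0.27 with WT and 0.411 with FcD over the members, where all genes gave 0.166 and 0.159. Of the members of smallest p there, Rsad2 (4335 bases), Slfn5 (6326) and Parp14 (9306) are among the 20 longer members, and Mx1 (3785), Dhx58 (3272) and Oasl1 (2608) among the 20 shorter ones. Anti-GARP:TGF-β1 WT alone had a trend of the same sign as the anti-TGF-β combination, -0.775 over the members and -0.421 over all genes.

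When a length and GC term was fitted for each library and taken out, an alternative chosen after seeing the data, the correlation with length over the members became -0.055 with the anti-TGF-β combination. The family's difference from isotype then had a median of 0.38, with 40 positive and 24 members higher at an unadjusted p under 0.05 (6.07% of all genes). Isg15 stood at 0.52 ± 0.17 (adjusted p = 0.163) against isotype and at 0.63 against anti-PD-1, where 0 genes were called. For the WT and FcD GARP combinations the median became 0.36 and 0.25, with 17 (13.9% of all genes) and 7 members (11.2%) higher. Between the combinations 0 members were then called: Isg15 differed by 0.18 (adjusted p = 0.481) from WT and by 0.34 (adjusted p = 0.216) from FcD, and Ifi35 had adjusted p values of 0.0610 and 0.117. What underlies the trend with length was not tested.

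**Figure D4:**
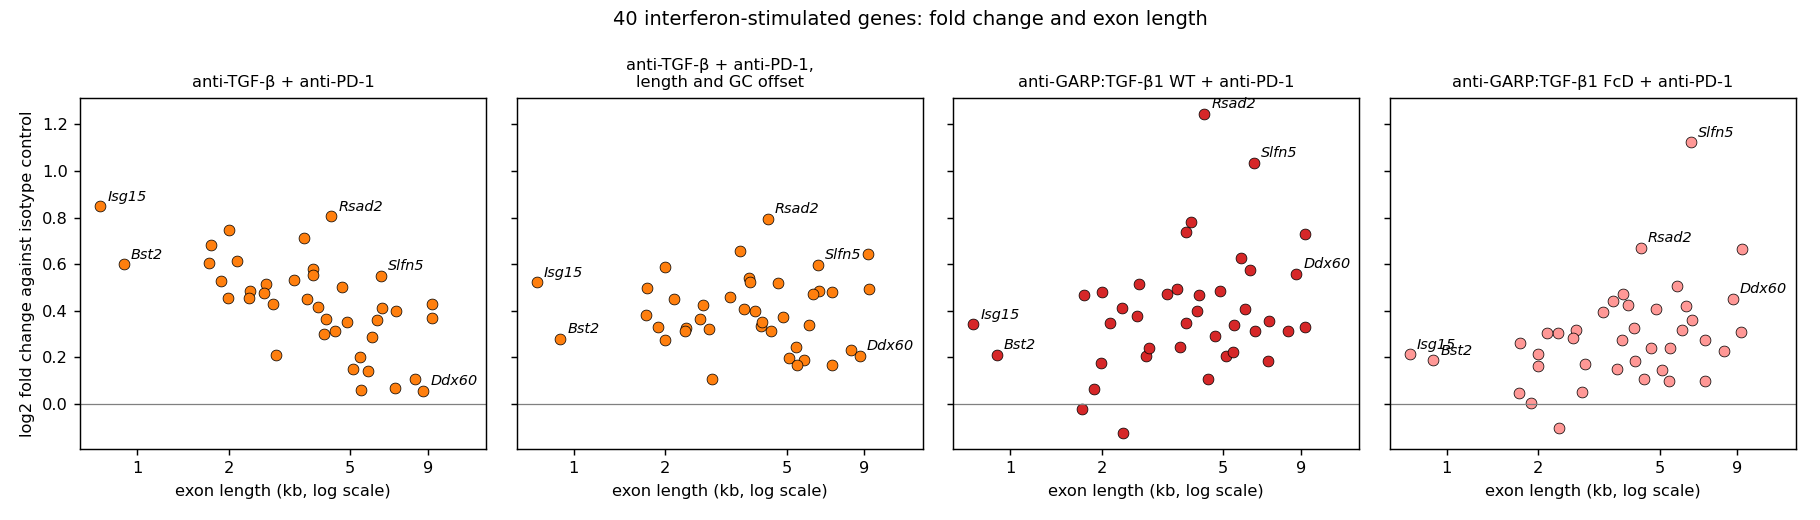
Log2 fold change against isotype (y axis) of each of the 40 genes by its exon length in kb (x axis, log scale), in 4 panels: the anti-TGF-β combination, the same with a length and GC term taken out, the WT GARP combination and the FcD GARP combination. The points fall with length in the first panel (Spearman -0.682) and are level in the second (-0.055), while they climb in the GARP panels (0.27 and 0.411).

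Of the ligands, type I interferons were hardly seen. All 21 ligand genes of the list were in the table, 14 had 0 counts in all 40 mice and 6 had counts too low for the filter. Ifnb1, interferon-β, had 103 counts in all, at most 7 in a mouse, with at least 1 in 35 of the 40 mice. Interferon-γ, the type II ligand encoded by Ifng, was the only ligand tested, and stood at 1.19 CPM ± 0.49 (SD, n = 5) in the controls. It stood at 3.31 ± 0.92 with the anti-TGF-β combination, 3.09 ± 1.52 with the WT and 3.36 ± 0.49 with the FcD GARP combination, with all 5 mice above all controls in each, and adjusted p = 0.141, 0.159 and 0.225.

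The receptor genes and their kinases lay on both sides of isotype with the anti-TGF-β combination and above it with both GARP combinations. None was called. Ifnar1 stood at -0.11, 0.08 and 0.08 on the log2 scale against isotype with the anti-TGF-β combination, the WT and the FcD GARP combination. Ifnar2 stood at 0.22, 0.51 and 0.35, Jak1 at -0.09, 0.45 and 0.36, and Tyk2 at -0.07, 0.42 and 0.24. Of the 5 receptor genes tested, 1, 2 and 0 were higher at an unadjusted p under 0.05, where 8.49%, 13.2% and 10.7% of all genes were. Between the combinations, 2 genes of the lists were called: Jak1 was lower (-0.54, adjusted p = 0.0362) and Tmem173, the adaptor STING, higher (0.30, adjusted p = 0.0490) with the anti-TGF-β combination than with the WT GARP combination. In that comparison 18.2% of all genes were called, and 0 in a fit of the 2 groups alone or without mouse 62, 68 or 69.

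Of the 9 signal transducers tested, 3, 5 and 3 were higher at an unadjusted p under 0.05 against isotype. The shares of all genes higher, 8.49%, 13.2% and 10.7%, apply to each count in this paragraph. Irf1, a transcription factor induced by interferons, stood at 0.60, 0.51 and 0.54, and Irf3, whose protein is activated by phosphorylation, at 0.16, -0.19 and -0.17. Of 10 genes that sense nucleic acids or relay them upstream of the ligands, 2 were higher and 1 lower (Mavs), 4 higher and 1 higher. Of the 3 feedback inhibitors 2, 3 and 2 were higher. Of 13 genes that respond mainly to interferon-γ, such as Cxcl9 and the MHC class II genes, 4, 7 and 9 were higher and 0 lower.

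Markers of leukocytes were also higher in part with the combinations. Against isotype 8.49%, 13.2% and 10.7% of all genes were higher, so a count of 1 in a short list is near that share. Of 7 macrophage markers 1, 5 and 2 were higher at an unadjusted p under 0.05 against isotype with the anti-TGF-β combination, the WT and the FcD GARP combination, and their summed level ran from 1554 to 2317 CPM in the controls, 2264 to 2832, 1694 to 7620 and 2102 to 3280 CPM. Of 3 monocyte markers 2, 2 and 1 were higher, with sums of 224 to 293, 313 to 360.2, 249 to 572 and 288 to 332 CPM. Of 5 markers of plasmacytoid dendritic cells, the main makers of type I interferon, 1, 1 and 3 were higher and 1 lower (Tcf4, in the first), with Siglech at 1.15 CPM ± 0.44 in the controls. Ptprc, the pan-leukocyte gene CD45, ran from 107 to 176 CPM in the controls and from 152 to 782 (mouse 77) with the WT GARP combination. With the anti-TGF-β combination it stood at 243, 139, 93.8, 136 and 147 CPM, a log2 difference of 0.18. Only mouse 53, the first of these, lay above all controls. It stood at 282, 107, 260.3, 277 and 275 CPM with the FcD GARP combination, where mouse 50, the second, also had the lowest Slfn5 of that group and the others lay above all controls. Of 5 dendritic cell markers 0, 2 and 3 were higher, of 5 T cell markers 1, 1 and 1 (Cd4), of 3 NK cell markers 2, 2 and 0, of 4 B cell markers 4, 0 and 0, and of 3 neutrophil markers tested 2, 1 and 2. Of 2 endothelial markers 0, 2 and 0 were higher, and of 2 adipocyte markers 0, 0 and 2, the last with a median of 3.30 on the log2 scale. The carcinoma keratins Krt8 and Krt18 summed to 2.96 to 281 CPM over the 40 mice and were higher in the FcD GARP combination only at that threshold. Against anti-PD-1 alone, 6 of the 7 macrophage markers and Ptprc (1.07) were higher with the WT form added (11.2% of all genes). So were 4 of the 5 T cell markers (Cd3d, Cd3e, Cd3g and Cd8a). With the FcD form added 1 macrophage marker was higher, and neither a T cell marker nor Ptprc was (6.46% of all genes). Where anti-PD-1 was added to the FcD form, Ptprc (1.02), 5 of the 7 macrophage markers and 13 of the 13 interferon-γ targets were higher (13% of all genes). With anti-TGF-β alone against isotype Siglech, Klk1, S100a8, S100a9, Cd4 and Klrb1c were higher (1.77% of all genes), and Ptprc reached 371 CPM in mouse 48. The 3 muscle genes Acta1, Ckm and Myh4 were lower at the same threshold with each of the 3 mAbs added to anti-PD-1, with medians of -5.09 (WT), -4.71 (FcD) and -6.07 (anti-TGF-β). They summed to 124 CPM in mouse 52 of the anti-PD-1 group and to 0.737 to 3.92 CPM in its other 4 mice. Mouse 47 of that group had Ptprc at 59.9 CPM, against 101 to 286 CPM in the other 4. Its adipocyte markers summed to 60.2 CPM, against 0.483 to 2.73 CPM. The part of these cells in the differences of the interferon-stimulated genes was not tested.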

How the data were processed

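Total RNA of CT26 tumor fragments of 40 mice was sequenced from stranded mRNA libraries (100-base reads). The authors aligned to GRCm38 with STAR 2.5.3a and SAMtools 1.6, counted per gene with HTSeq 0.9.1, and deposited raw counts of 54087 genes with no normalization. The annotation release and strand setting are not given in the sources used here. Of the gene names, 27 had become dates, and 0 per-sample columns were left out. The 5 mice of each group are separate animals, and p-values measure the spread between them.

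Counts were filtered with filterByExpr, scaled with TMM and tested 2-sided with edgeR 4.0.16 (R 4.3.3, limma 3.58.1; robust quasi-likelihood), in 1 model of 8 groups, over 16 pairs of groups and 3 interactions. Benjamini-Hochberg adjustment ran over all genes tested. Standard errors are the fold change over the square root of F, and log2 CPM uses a prior count of 2. A check of the test on simulated counts was also run, and its outcome is not reported here. The members and lists were chosen with earlier results of these data known. Per-mouse values are given for Isg15 and, in each comparison, the members of smallest p: 4 for each combination against isotype and 1 for each single mAb or addition to anti-PD-1. Alternatives were other size factors, no filter, DESeq2 1.42.0, the library block, a fit of 2 groups and leaving out each mouse. The length and GC term, the omission of mice 47, 52 and 62, and all alternatives for comparisons between combinations were chosen after seeing the data. Exon lengths, for 86.5% of genes tested, and coordinates come from the GRCm38 annotation.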

Additional observations from a re-analysis of the deposited data

Results flagged for a closer look

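The sets of 5 mice examined numbered 112 (the named members and the mean log2 CPM of the family, in each group). Of these, 5 had a mouse whose gap to its nearest neighbour exceeded 0.71 of the set's range. Chance alone gives about 1 in 20. Both Rsad2 (149.98 CPM against 32.9 to 50.8 in the other 4) and Slfn5 (56.7 CPM against 16.5 to 27.1) were high in mouse 53 of the anti-TGF-β + anti-PD-1 group. In the same group Ifit3b was low in mouse 62, at 13.9 CPM against 20.1 to 22.0. With anti-GARP:TGF-β1 WT alone Ifit3 was low in mouse 49, at 40.6 CPM against 47.1 to 48.7, and Mx1 was high in mouse 42, at 31.4 CPM against 19.6 to 22.0.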

How the results depend on the processing

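The median member difference moved by less than the spread between mice under each alternative run, and changed sign only near 0: for anti-PD-1 against isotype it became 0.05 without mice 47, 52 and 62, 0.09 without mouse 47 and 0.01 without control mouse 46, and for anti-GARP:TGF-β1 WT 0.01 without mouse 46. Without 1 mouse it was 0.39 to 0.52 with anti-TGF-β + anti-PD-1, 0.27 to 0.42 with the WT and 0.22 to 0.32 with the FcD GARP combination, all against isotype. Within the library blocks, which are not among these alternatives, the median member difference moved further. Against isotype it was -0.37 and 0.25 for anti-PD-1 and -0.05 and 0.55 for anti-TGF-β. Counts also moved more, and the cause was not tested.

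Against isotype, the genes called went from 0 to 139 with DESeq2 and 8 in a fit of 2 groups for anti-TGF-β + anti-PD-1, to 17 with the library block, 10 with DESeq2 and 177 in a fit of 2 groups for the FcD GARP combination, and to 1 with DESeq2 for anti-PD-1. Against anti-PD-1, anti-TGF-β + anti-PD-1 had 78 with DESeq2 and 0 in a fit of 2 groups, with the length and GC term or without mice 47, 52 and 62, counts that are no support for the family, which was chosen on this comparison. Against the WT GARP combination it had 848 with no filter, 792 with the length and GC term, and 0 in a fit of 2 groups or without mice 47, 52 and 62. Against the FcD GARP combination it had 1980 with DESeq2, and 0 with no filter, in a fit of 2 groups, with the length and GC term or without mice 47, 52 and 62.

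Higher members at an unadjusted p under 0.05, each with the share of all genes higher in the same fit, became 22 (14.9%) in a fit of 2 groups and 12 (11.3%) without mice 47, 52 and 62 for FcD + anti-PD-1 against isotype. For anti-TGF-β they became 9 (1.57%) with the library block, 3 (1.59%) with the length and GC term and 9 (2.12%) without mice 47, 52 and 62. Against anti-PD-1 they became 7 (3.54%) in a fit of 2 groups and 12 (11.1%) without those mice for the WT form, and 5 (6.99%) and 3 (9.38%) for the FcD form. Anti-TGF-β + anti-PD-1 had 3 (14.4%) with the length and GC term and 10 (12.1%) without those mice against the WT, and 4 (14%) and 15 (10.7%) against the FcD GARP combination.

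Without 1 mouse, genes called ran from 0 to 2006 for anti-TGF-β + anti-PD-1 against isotype (730 without mouse 63, 2006 without mouse 53, 1 without mouse 66) and from 0 to 538 for the WT combination against anti-PD-1 (mouse 52). For anti-TGF-β + anti-PD-1 against anti-PD-1 they ran from 0 to 1734 (mouse 53; 2 without mouse 52, and 0 without any of the other 8). Against the WT GARP combination they ran from 0 (mice 62, 68, 69) to 5309 (mouse 53), with 213, 1187, 1422 and 1686 without mice 57, 64, 66 and 77, and against the FcD form from 0 to 4612 (mouse 53; 4256 without mouse 50). Higher members ran from 8 (mouse 64) to 20 for the WT and from 1 (mouse 78) to 11 (mouse 50) for the FcD combination against isotype, from 0 (mouse 79) to 14 (mouse 59) for anti-TGF-β, from 6 (mouse 47) to 30 for the WT and from 0 (mouse 47) to 21 (mouse 52) for the FcD combination against anti-PD-1, and from 4 to 9 (mouse 62) for anti-TGF-β + anti-PD-1 against the WT combination. Isg15 changed sign against isotype for anti-PD-1 (-0.168 to 0.0415, the latter without mouse 47) and for anti-GARP:TGF-β1 WT (-0.116 with the length and GC term; -0.0123 to 0.145 without 1 mouse, below 0 without mouse 56 or 78).

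No paired analysis was possible because the labels give no replicate numbers that groups share. Of the ligands, the type I interferons had too few counts at these depths to be tested.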

Other observations

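Within groups, the members varied together from mouse to mouse to unequal degrees. After the group means were removed, each gene's log2 CPM was set against the mean of the other 39 members over the 40 mice. The points share libraries and depth, and the values are a description. The median Pearson r was 0.795. Ifi44, an interferon-induced protein of the cytoplasm, was highest at 0.93, and Oas1g was lowest at 0.26, with Ifi35 at 0.34 and Bst2 at 0.41. Isg15 stood at 0.63.

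Isg15 and Rsad2 differed in the members they varied with, and shared some. Isg15 had an r of 0.25 with Rsad2 and -0.03 with Slfn5, against 0.78 with Ifit3, 0.79 with Oas1b and 0.76 with Usp18. Rsad2 had an r of 0.89 with Ifit2, 0.83 with Mx1 and 0.74 with Slfn5, against 0.12 with Usp18 and -0.001 with Oas1b. Ifit3 (0.60 with Rsad2), Ifit1 (0.63 with Isg15 and 0.68 with Rsad2) and Oasl1 (0.61 and 0.74) varied with both.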
